A study of Mus musculus with 12 samples.

Results

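The synaptic vesicle and release genes examined here are 37 listed genes that encode proteins of the synaptic vesicle membrane, its transmitter transporters, its calcium sensors, the SNARE fusion machinery and the presynaptic active zone. They are listed by symbol, and all 37 were found among the 22667 gene IDs of the deposited tables and passed the filter on low counts. Their lowest count in any library was 121. The list was split by role into 7 vesicle membrane proteins, 4 synapsins and synucleins, 2 glutamate transporters, 8 calcium sensors, 7 SNARE proteins and SNARE chaperones, 7 Rab3, active zone and priming proteins, and 2 proteins of vesicle recovery.

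Messenger RNA of E18.5 mouse embryos was sequenced, with cortex and hippocampus taken apart. The controls were labelled wild type and the others nSR100/Srrm4 KO; Srrm4 is a splicing regulator of neurons. The KO line came from an EUCOMM conditional allele in stem cells that were aggregated with ICR morulae, and was kept on C57Bl/6N. Exons 7 and 8 of Srrm4 had been removed by crossing to mice with CMV-cre, a driver active in most tissues, so the loss was not limited to neurons. The 12 deposited samples made 8 libraries, 2 for each of the 4 groups, because the 2 runs of each replicate 1 shared a table. Values for single libraries are listed throughout as control 1, control 2, KO 1 and KO 2 within a tissue. Levels are in RPKM as the authors computed it, that is reads scaled by gene length and library total, so that levels can be compared between genes.

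At a chemical synapse, transmitter is loaded into small vesicles that dock at the active zone, where SNARE proteins of the vesicle and of the plasma membrane zip together. Calcium that enters through channels binds synaptotagmins and triggers fusion, and the vesicle membrane is then taken back by endocytosis and refilled. Many of these proteins come in small families whose members are used by different neurons and at different ages, and their transcripts are made in neurons well before most synapses have formed.

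Library totals ran from 58210499 to 140052443 counts, with replicate 1 the deeper one in each group. Srrm4 lay at 24.2 to 27.9 RPKM in the 4 control libraries and at 5.68 to 8.12 RPKM in the 4 KO libraries. Of the 8 hippocampal markers listed, Prox1, Zbtb20 and Lef1 passed as higher in hippocampus, by 2.80, 2.62 and 2.84 on the log2 scale (edgeR), and the other 5 passed as lower. Of the 8 cortical markers 5 were lower in hippocampus and Fezf2 and Lhx2 were higher. Hippocampus KO 1 stood apart: mitochondrial genes took 4.4% of its counts against 3.14% to 3.44% elsewhere. Nothing in the labels says that replicates are different animals, and p-values cover only the spread of these libraries, some of which may be technical. Summed levels of Y-linked genes were 35.3, 144, 25.4 and 0.319 CPM (counts scaled to the library total) in cortex. In hippocampus they were 39.6, 148, 49.8 and 0.412 CPM. Replicates of the same group therefore differed in Y-linked RNA, in every group, so their spread was not that of repeat libraries with the same Y-linked content. Cortex and hippocampus were alike for control 1, control 2 and KO 2, while KO 1 had 25.4 CPM in cortex and 49.8 CPM in hippocampus. Whether libraries of the same genotype and number came from the same embryo is not stated. The tissue tests, the interaction and the KO tests with tissues combined treat them as independent, except where pairing or a mean of tissues is named.

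Most of the machinery was already well expressed at this age. The median of the 37 mean levels was 37.3 RPKM, against 8.36 RPKM over all genes tested, and 32 of the 37 lay above that value. The highest was Vamp2, the main vesicle SNARE of the forebrain, with a mean of 176 RPKM over the 8 libraries. It was followed by the vesicle GTPase Rab3a at 168 RPKM, the synaptotagmin Syt4 at 128 RPKM, the membrane SNARE Snap25 at 108 RPKM and synaptophysin, Syp, at 108 RPKM. At the other end stood Cadps2 at 3.95 RPKM, Vamp1 at 3.66 RPKM, Sv2c at 1.495 RPKM and Syt2 at 0.828 RPKM. The plot of levels by library shows that differences between genes were far larger than differences between libraries.

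**Figure D1:**
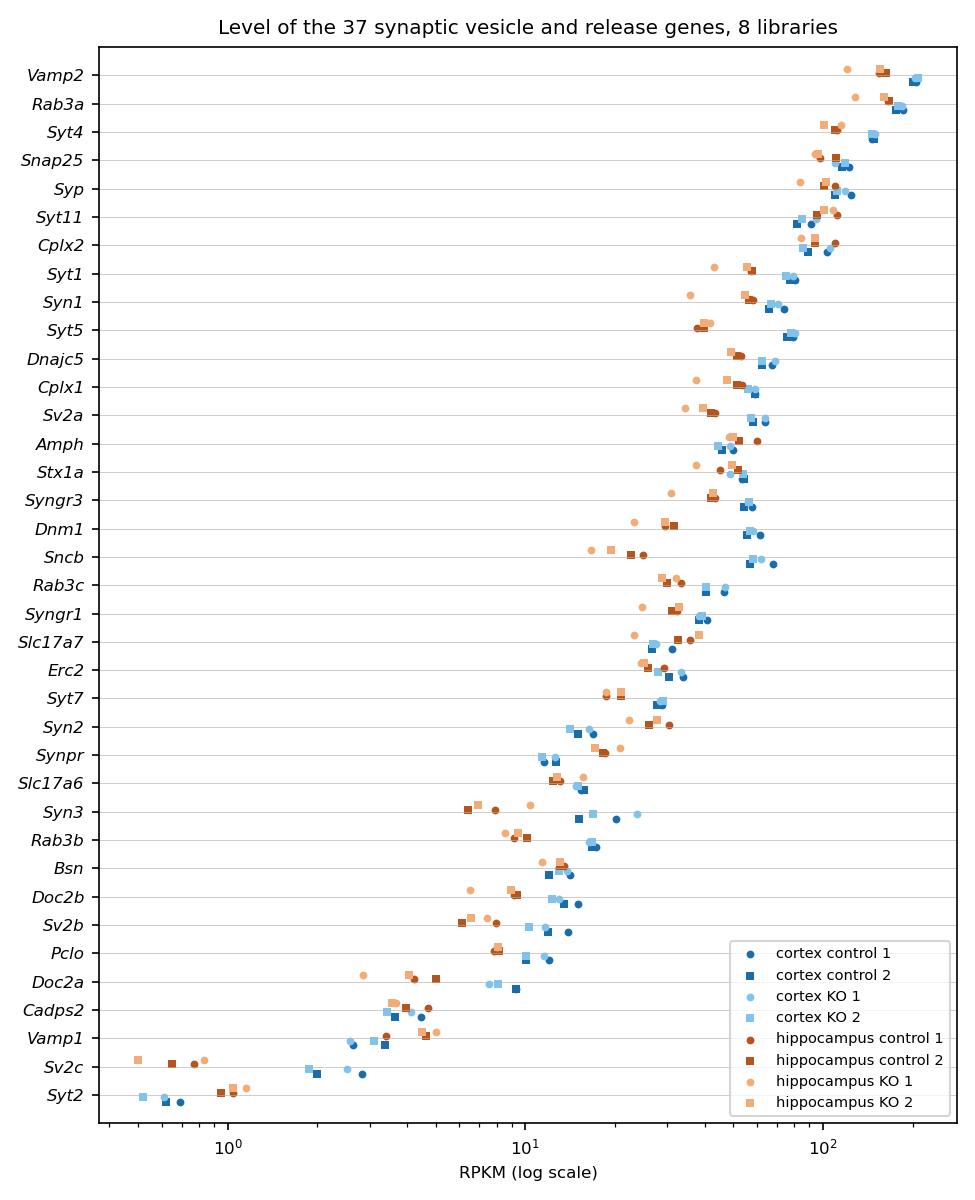
RPKM of each of the 37 genes on a log axis, with 1 point per library, coloured by group and shaped by replicate. The genes span from a mean of 0.828 RPKM for Syt2 to 176 RPKM for Vamp2, and in most rows the 4 hippocampus points sit to the left of the 4 cortex points.

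The tissue comparison asked how the machinery differs between hippocampus and cortex. With genotypes combined, 27 of the 37 genes fell in hippocampus and 4 rose, among 16111 genes of which 54.1% passed in either direction (edgeR quasi-likelihood test, Benjamini-Hochberg adjusted p under 0.05). The background for each direction was 25% lower and 29% higher. The median log2 fold change of the 37 was -0.47, beside 0.02 over all genes tested. On the TMM-scaled log2 CPM used in the test, 26 of the genes had all 4 hippocampus libraries below all 4 cortex libraries, where 24% of all genes did, and 3 had all 4 above, where 26.9% did. In whole tissue, fewer cells of a type and less RNA per cell cannot be told apart.

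Neuronal markers moved the same way. All 10 pan-neuronal markers listed (such as Tubb3, Map2 and Stmn2) were lower in hippocampus, with a median log2 fold change of -0.47. Their summed level was 9450 to 10100 CPM in the cortex libraries and 7360 to 8130 CPM in hippocampus, and none was at 0. Progenitor markers went the other way, with 7 of 8 higher and a sum of 716 to 780 CPM in cortex against 1540 to 1830 CPM in hippocampus. Interneuron markers were lower for 9 of 10, with a sum of 793 to 854 CPM in cortex and 409 to 536 CPM in hippocampus. Of the other lists, markers of striatum and thalamus were lower for 6 of 8 (137 to 146 CPM in cortex and 61.9 to 68.1 CPM in hippocampus), oligodendrocyte lineage markers were lower for 5 of 7, and microglia markers were higher for 8 of 8 (46 to 57.5 CPM in cortex and 82.7 to 109 CPM in hippocampus). Choroid plexus markers were higher for 4 of 6, endothelial markers for 5 of 6 and astrocyte markers for 3 of 6 with 2 lower, and none of 7 erythroid markers passed. No marker of these lists was at 0 in any library. The part of these differences in the values below was not tested.

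**Figure D2:**
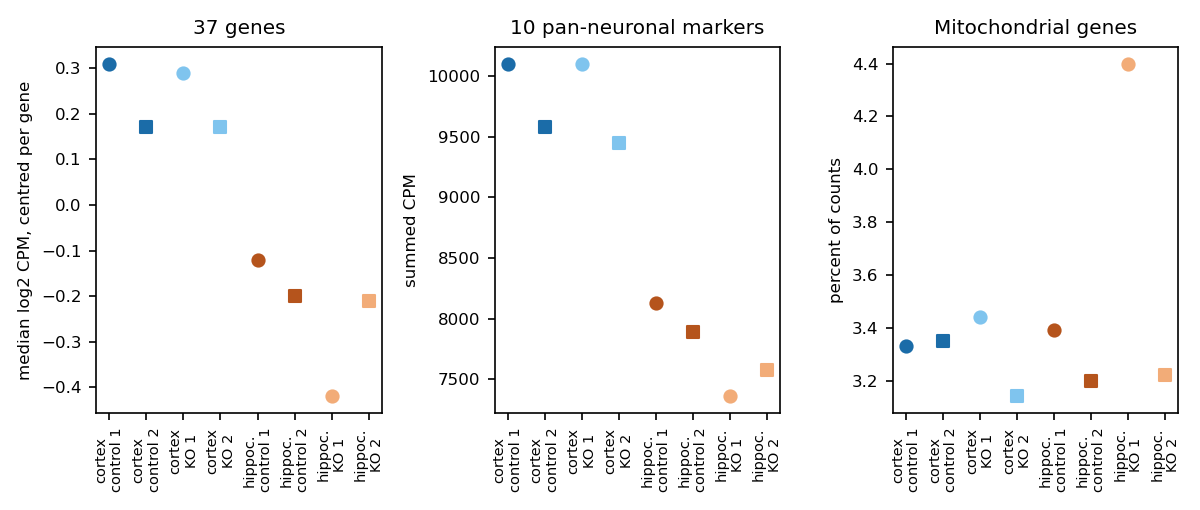
For each library, the median over the 37 genes of log2 CPM centred per gene (left), the summed CPM of 10 pan-neuronal markers (middle) and the percent of counts from mitochondrial genes (right). The left panel runs from 0.31 in cortex control 1 to -0.42 in hippocampus KO 1, which also has the highest mitochondrial share, 4.4%.

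Among the vesicle membrane proteins, 6 fell in hippocampus and 1 rose. Sv2c belongs to the SV2 glycoproteins, which resemble sugar transporters and are needed for normal release, and it had the largest difference of the 37. Its level was 2.82, 2.0, 2.51 and 1.88 RPKM in cortex and 0.77, 0.65, 0.83 and 0.50 RPKM in hippocampus. Every hippocampus library was below every cortex library, 3.54-fold lower in the fit (edgeR log2 fold change -1.82, SE 0.18, adjusted p = 3e-05). The broadly expressed Sv2a stood at 63.9, 58.02, 64.1 and 57.4 RPKM in cortex and 43.5, 42.1, 34.4 and 39.7 RPKM in hippocampus (edgeR log2 fold change -0.70, SE 0.08, adjusted p = 7.9e-05). For the related Sv2b the levels were 13.96, 11.9, 11.7 and 10.3 RPKM in cortex and 7.95, 6.14, 7.43 and 6.58 RPKM in hippocampus (edgeR log2 fold change -0.85, SE 0.11, adjusted p = 0.00013). Neither of these sets of libraries overlapped between tissues. Synaptoporin, Synpr, is a relative of synaptophysin known from hippocampal mossy fibres, and it was the only member of this group to rise. It lay at 11.6, 12.7, 12.5 and 11.3 RPKM in cortex and 18.47, 18.3, 20.7 and 17.1 RPKM in hippocampus, 1.46-fold higher (edgeR log2 fold change 0.54, SE 0.07, adjusted p = 0.00014), with all hippocampus libraries above all cortex libraries. Syp itself, the most abundant tetraspan protein of the vesicle, measured at 124, 109.96, 119 and 112 RPKM in cortex and 110.13, 101, 83.5 and 103 RPKM in hippocampus (edgeR log2 fold change -0.32, SE 0.09, adjusted p = 0.014). Its tissues overlapped slightly in RPKM, since hippocampus control 1 lay above cortex control 2. The synaptogyrins are further tetraspan vesicle proteins. Syngr1 was measured at 40.7, 38.2, 38.4 and 39.4 RPKM in cortex and 32.4, 31.1, 24.6 and 32.8 RPKM in hippocampus (edgeR log2 fold change -0.47, SE 0.09, adjusted p = 0.0019), and Syngr3 at 57.9, 54.2, 55.8 and 56.2 RPKM in cortex and 43.2, 42.1, 30.8 and 42.8 RPKM in hippocampus (edgeR log2 fold change -0.59, SE 0.10, adjusted p = 0.00097). Both were lower in every hippocampus library, and hippocampus KO 1 was the lowest of the 8 for each.

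The synapsins coat vesicles and tether them in the reserve pool, and their members differed in direction. Syn1 levels were 74.03, 65.8, 70.9 and 66.7 RPKM in cortex and 58.2, 56.6, 35.6 and 54.6 RPKM in hippocampus. All hippocampus libraries were below all cortex libraries (edgeR log2 fold change -0.54, SE 0.13, adjusted p = 0.0076), and hippocampus KO 1 was far below the other 3. Syn2 went the opposite way, at 16.9, 15.1, 16.3 and 14.1 RPKM in cortex and 30.3, 25.99, 22.4 and 27.6 RPKM in hippocampus, which is 1.60-fold higher (edgeR log2 fold change 0.67, SE 0.10, adjusted p = 0.00035), again with no overlap. Syn3, the synapsin linked to immature neurons, was at 20.2, 15.1, 23.8 and 16.9 RPKM in cortex and 7.93, 6.41, 10.4 and 6.92 RPKM in hippocampus, 2.56-fold lower (edgeR log2 fold change -1.36, SE 0.17, adjusted p = 0.00012). Replicate 1 lay above replicate 2 in all 4 groups, and the tissues did not overlap. Sncb encodes beta-synuclein, a presynaptic protein. It lay at 68.0, 57.1, 61.99 and 58.3 RPKM in cortex and 24.9, 22.6, 16.6 and 19.4 RPKM in hippocampus, 3.16-fold lower in hippocampus (edgeR log2 fold change -1.66, SE 0.11, adjusted p = 1.9e-06), with a wide gap between the tissues.

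Sequence upstream of 4 genes is shown because Syn2 and Vamp1 rose in hippocampus while their relatives fell, and because Syn1 and Sncb fell. Each line is the 250 bases before the annotated start, 5' to 3' on the gene's strand, from RefSeq on GRCm38.p6, which is not the mm9 build of the deposited tables. Syn2 has 2 starts in that table, and the one farthest upstream is shown. Capitals mark matches on either strand to 4 motifs: the left arm of the RE1 element bound by the neuronal repressor REST (TTCAGCACC), the cyclic AMP response element CRE (TGACGTCA), the GC box (GGGCGG) and the CCAAT box (CCAAT). No match overlapped another.
Syn1, chrX:20920919-20921168, minus strand: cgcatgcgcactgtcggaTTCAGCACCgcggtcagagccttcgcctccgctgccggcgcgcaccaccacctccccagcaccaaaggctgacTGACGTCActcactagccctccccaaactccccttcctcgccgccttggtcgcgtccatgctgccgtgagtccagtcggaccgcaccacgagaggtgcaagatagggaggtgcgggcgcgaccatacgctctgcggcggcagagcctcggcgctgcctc
Syn2, chr6:115134652-115134901, plus strand: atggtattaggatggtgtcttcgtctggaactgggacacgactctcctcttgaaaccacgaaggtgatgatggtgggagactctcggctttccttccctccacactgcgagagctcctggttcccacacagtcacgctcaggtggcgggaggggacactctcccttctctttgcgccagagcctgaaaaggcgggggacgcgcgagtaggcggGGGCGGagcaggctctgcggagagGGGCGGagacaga
Vamp1, chr6:125215331-125215580, plus strand: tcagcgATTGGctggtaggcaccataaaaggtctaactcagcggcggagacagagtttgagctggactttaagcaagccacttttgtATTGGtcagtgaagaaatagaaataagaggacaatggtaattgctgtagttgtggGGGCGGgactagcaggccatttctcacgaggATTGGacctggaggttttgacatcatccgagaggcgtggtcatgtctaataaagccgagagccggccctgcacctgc
Sncb, chr13:54766596-54766845, minus strand: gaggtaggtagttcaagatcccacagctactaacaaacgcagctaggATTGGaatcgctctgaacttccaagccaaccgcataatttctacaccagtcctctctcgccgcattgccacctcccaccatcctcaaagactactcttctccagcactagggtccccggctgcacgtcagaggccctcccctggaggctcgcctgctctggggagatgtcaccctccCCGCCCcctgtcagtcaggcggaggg
The Syn1 window held the RE1 left arm 232 bases and the CRE 159 bases before the start. The RE1 left arm was in 0.301% and the CRE in 1.55% of the 32851 windows of this length in the table, and among the 27 members with an entry Syn1 was the single gene with either. The Syn2 window held 2 GC boxes, that of Vamp1 a GC box and 3 CCAAT boxes, and that of Sncb 1 of each. GC boxes were found in 32.7% of all windows and in 21 of the 36 member windows, and CCAAT boxes in 33.8% of all windows and in 9 of the 36. These are matches of letters, with no measurement of binding.

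Of the vesicular glutamate transporters, Slc17a6 fell and Slc17a7 did not pass. Slc17a7 encodes VGLUT1, the transporter of most mature cortical and hippocampal excitatory neurons. It lay at 30.99, 26.5, 27.5 and 26.7 RPKM in cortex and 35.7, 32.6, 23.2 and 38.3 RPKM in hippocampus, and did not pass (edgeR log2 fold change 0.12, SE 0.14, adjusted p = 0.49). Hippocampus KO 1 was the lowest and hippocampus KO 2 the highest of the 8, so the hippocampus range enclosed that of cortex. Leaving out hippocampus KO 1 brought the difference to 0.27 and an adjusted p of 0.032 (edgeR). Slc17a6 encodes VGLUT2, which is prominent in subcortical neurons and early in development. Its levels were 15.4, 15.7, 14.8 and 14.99 RPKM in cortex and 13.1, 12.4, 15.6 and 12.8 RPKM in hippocampus (edgeR log2 fold change -0.27, SE 0.07, adjusted p = 0.0097). In RPKM hippocampus KO 1 lay inside the cortex range, and the other 3 hippocampus libraries lay below it. With limma on log2(RPKM + 1) the difference was -0.17 and did not pass (adjusted p = 0.073).

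Of the calcium sensors 6 fell, 1 rose and Syt11 did not pass. Syt1, the sensor for fast release in forebrain, lay at 80.7, 77.6, 79.1 and 75.2 RPKM in cortex and 57.1, 57.6, 43.2 and 55.5 RPKM in hippocampus (edgeR log2 fold change -0.65, SE 0.09, adjusted p = 0.00021). Syt2, the fast sensor best known from hindbrain and spinal synapses, was scarce but 1.60-fold higher in hippocampus, at 0.69, 0.62, 0.61 and 0.52 RPKM in cortex and 1.04, 0.95, 1.15 and 1.04 RPKM in hippocampus (edgeR log2 fold change 0.68, SE 0.11, adjusted p = 0.00048). Neither gene overlapped between tissues, and they differed in opposite directions. Syt5, a further calcium-binding synaptotagmin, had the smallest SE of the 37. It lay at 79.1, 75.6, 80.6 and 78.1 RPKM in cortex and 37.8, 39.9, 41.8 and 39.9 RPKM in hippocampus, 2.09-fold lower (edgeR log2 fold change -1.07, SE 0.04, adjusted p = 1.4e-07). Syt7, a slow sensor of asynchronous release, was at 28.8, 27.7, 28.4 and 28.97 RPKM in cortex and 18.7, 21.01, 18.6 and 20.9 RPKM in hippocampus (edgeR log2 fold change -0.61, SE 0.06, adjusted p = 1.6e-05), and Syt4, which binds calcium weakly and is found on dense-core vesicles, was at 146, 149, 149.84 and 146 RPKM in cortex and 112, 109, 115 and 101 RPKM in hippocampus (edgeR log2 fold change -0.53, SE 0.06, adjusted p = 4.7e-05). Both were lower in all 4 hippocampus libraries. Syt11, another synaptotagmin without strong calcium binding, was at 90.96, 82.1, 95.1 and 84.9 RPKM in cortex and 112, 95.6, 108 and 101 RPKM in hippocampus and did not pass (edgeR log2 fold change 0.15, SE 0.08, adjusted p = 0.15). In RPKM its hippocampus libraries were all above its cortex libraries, by a narrow margin, and limma on log2(RPKM + 1) called it higher, by 0.24 (adjusted p = 0.016). With libraries paired by genotype and number, edgeR also called it higher (adjusted p = 0.023). The Doc2 proteins are soluble sensors of high calcium affinity that act in spontaneous release. Doc2a was at 9.31, 9.33, 7.57 and 8.12 RPKM in cortex and 4.22, 4.99, 2.84 and 4.05 RPKM in hippocampus, 2.29-fold lower (edgeR log2 fold change -1.20, SE 0.11, adjusted p = 2.2e-05), and Doc2b was at 15.1, 13.5, 13.0 and 12.3 RPKM in cortex and 9.18, 9.4, 6.51 and 8.94 RPKM in hippocampus (edgeR log2 fold change -0.76, SE 0.10, adjusted p = 0.00017). Both were lower in every hippocampus library, and hippocampus KO 1 gave the lowest value of each.

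Of the SNARE genes and their chaperones 5 fell, 1 rose and Cplx2 did not pass. Vamp2 was at 206, 200.16, 203 and 209 RPKM in cortex and 154, 163, 120.21 and 155 RPKM in hippocampus (edgeR log2 fold change -0.56, SE 0.09, adjusted p = 0.0006), with no overlap between tissues. Vamp1, the vesicle SNARE of brainstem, spinal cord and some forebrain neurons, rose 1.41-fold at a far lower level, at 2.63, 3.37, 2.57 and 3.11 RPKM in cortex and 3.4, 4.65, 5.01 and 4.5 RPKM in hippocampus (edgeR log2 fold change 0.50, SE 0.12, adjusted p = 0.0072). In RPKM its hippocampus libraries were just above its cortex libraries, with hippocampus control 1 at 3.4 beside cortex control 2 at 3.37. Snap25 and syntaxin are the SNAREs of the plasma membrane. Snap25 lay at 122, 116, 109.79 and 119 RPKM in cortex and 97.6, 111, 94.3 and 96.5 RPKM in hippocampus (edgeR log2 fold change -0.32, SE 0.05, adjusted p = 0.00078), where hippocampus control 2 was above cortex KO 1 in RPKM. Stx1a, syntaxin 1A, lay at 53.4, 54.1, 48.8 and 54.1 RPKM in cortex and 45.2, 51.9, 37.4 and 49.6 RPKM in hippocampus (edgeR log2 fold change -0.28, SE 0.09, adjusted p = 0.021), and hippocampus control 2 and hippocampus KO 2 fell inside the cortex range. The Stx1a call was lost without cortex KO 2 (adjusted p = 0.07, edgeR) and without hippocampus control 1 (adjusted p = 0.052). Complexins bind the assembled SNARE complex and hold it ready for calcium. Cplx1 was at 59.2, 59.03, 59.1 and 55.8 RPKM in cortex and 53.4, 51.5, 37.3 and 47.5 RPKM in hippocampus (edgeR log2 fold change -0.39, SE 0.09, adjusted p = 0.0051), lower in every hippocampus library, while Cplx2 was at 103, 89.1, 105 and 85.9 RPKM in cortex and 109.92, 94.3, 84.5 and 93.9 RPKM in hippocampus and did not pass (edgeR log2 fold change -0.10, SE 0.10, adjusted p = 0.46). Dnajc5 encodes cysteine string protein, the vesicle chaperone of SNAP-25. It lay at 67.4, 62.4, 69.3 and 62.5 RPKM in cortex and 52.9, 51.4, 48.9 and 49.1 RPKM in hippocampus (edgeR log2 fold change -0.46, SE 0.07, adjusted p = 0.00028), and its tissues did not overlap.

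Of the 7 Rab3, active zone and priming genes, 5 fell and none rose. Rab3 proteins are vesicle GTPases that bind active zone effectors. Rab3b had the largest difference among them, at 17.3, 16.8, 16.3 and 16.7 RPKM in cortex and 9.15, 10.1, 8.56 and 9.47 RPKM in hippocampus, 1.92-fold lower (edgeR log2 fold change -0.94, SE 0.05, adjusted p = 1e-06). Rab3c was at 46.6, 40.3, 46.8 and 40.4 RPKM in cortex and 33.4, 29.8, 32.04 and 28.9 RPKM in hippocampus (edgeR log2 fold change -0.58, SE 0.08, adjusted p = 0.00033) and the abundant Rab3a at 186, 175, 184 and 178 RPKM in cortex and 165, 167, 128 and 159.75 RPKM in hippocampus (edgeR log2 fold change -0.32, SE 0.08, adjusted p = 0.01). None of the 3 overlapped between tissues, and hippocampus KO 1 was the lowest library for Rab3a and Rab3b. Piccolo and bassoon are very large scaffolds of the active zone. Pclo was at 11.98, 10.1, 11.6 and 10.1 RPKM in cortex and 7.85, 8.16, 8.01 and 8.11 RPKM in hippocampus (edgeR log2 fold change -0.53, SE 0.07, adjusted p = 0.00023), lower in each hippocampus library, whereas Bsn was at 14.1, 12.1, 13.8 and 12.99 RPKM in cortex and 13.5, 13.04, 11.4 and 13.1 RPKM in hippocampus and did not pass (edgeR log2 fold change -0.15, SE 0.08, adjusted p = 0.16). Erc2 encodes the active zone protein CAST. Its levels were 33.9, 30.4, 33.2 and 27.8 RPKM in cortex and 29.1, 25.9, 24.5 and 25.03 RPKM in hippocampus (edgeR log2 fold change -0.36, SE 0.08, adjusted p = 0.005), and hippocampus control 1 overlapped cortex KO 2. Cadps2, a priming factor of dense-core vesicles, was at 4.46, 3.66, 4.14 and 3.42 RPKM in cortex and 4.72, 3.96, 3.67 and 3.57 RPKM in hippocampus. It did not pass (edgeR log2 fold change -0.08, SE 0.11, adjusted p = 0.58), and its libraries were interleaved.

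Of the endocytic pair, Dnm1 fell and Amph did not pass. Dnm1 encodes dynamin 1, the GTPase that pinches off vesicles. It lay at 61.6, 55.4, 58.2 and 56.7 RPKM in cortex and 29.5, 31.5, 23.3 and 29.4 RPKM in hippocampus, 2.18-fold lower (edgeR log2 fold change -1.12, SE 0.09, adjusted p = 5.9e-06), with a wide gap between tissues. Amph encodes amphiphysin, which brings dynamin to the neck of the vesicle. Its levels were 49.8, 45.6, 48.7 and 44.4 RPKM in cortex and 59.9, 52.3, 48.3 and 49.99 RPKM in hippocampus (edgeR log2 fold change 0.07, SE 0.08, adjusted p = 0.49), with cortex and hippocampus overlapping.

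**Figure D3:**
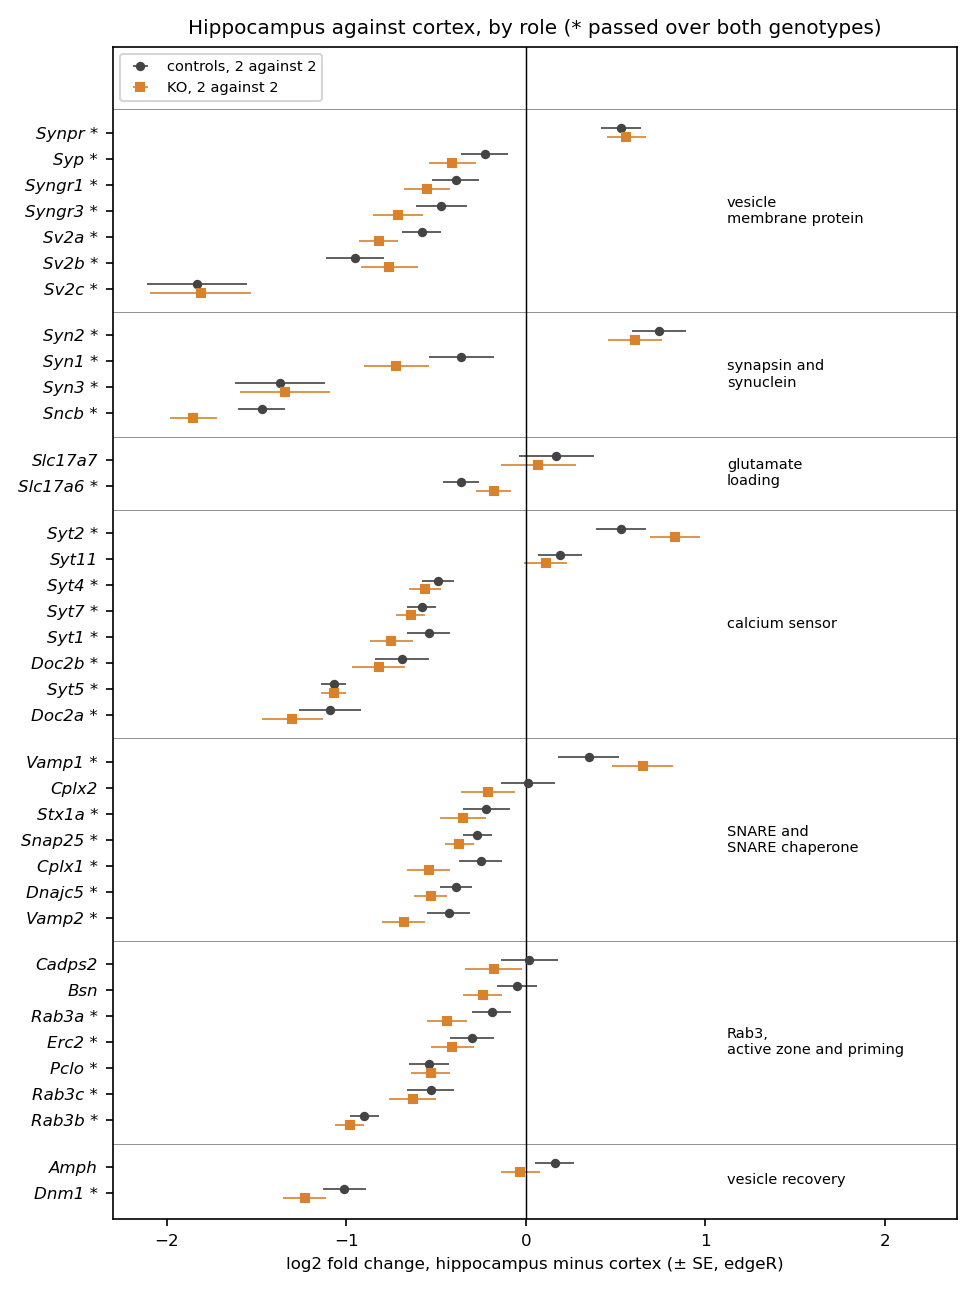
Log2 fold change of hippocampus against cortex with its SE, for controls (circles) and KO (squares), by role; a star marks genes that passed with genotypes combined. Sv2c (-1.83 in controls, -1.81 in KO) and Sncb (-1.47 and -1.85) lie farthest left. Of the starred genes, Syt2, Syn2, Synpr and Vamp1 lie right of 0 in both genotypes.

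Within a genotype, 2 libraries stood against 2. In controls 20 of the 37 were lower and 3 higher in hippocampus, where 33.9% of all genes passed, 14.9% lower and 19% higher (edgeR). In KO 25 were lower and 4 higher, where 40% of all genes passed, 18.8% lower and 21.2% higher. Lower in both were 19 genes, out of the 20 in controls and the 25 in KO, and Syn2, Synpr and Syt2 were higher in both. The difference between the genotypes was itself tested, as the interaction, and no gene of the 37 passed (0% of all genes did, 0.981% of genes had an unadjusted p under 0.05, and none of the 37 was among them). DESeq2 also called none of the 37. The interaction was farthest from 0 in this list for Sncb at -0.38 (SE 0.18), where the tissue difference was -1.47 in controls and -1.85 in KO animals. With hippocampus KO 1 left out the combined fit gave 27 lower and 5 higher, with a median of -0.38. In controls the median of the 37 ran from -0.47 to -0.32 with single libraries left out, beside -0.39 with all libraries. It was -0.32 without cortex control 1 and -0.34 without hippocampus control 2.

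Levels within a library can be set against a relative of the same family, which sets aside any factor common to all genes of a library. In all, 13 ratios of RPKM were formed and compared over 4 hippocampus and 4 cortex libraries with a two-sided exact permutation test that ignored genotype. With 4 against 4 the smallest possible p is 0.0286, and 9 of the 13 ratios reached it because the tissues did not overlap (adjusted p = 0.0413 by Benjamini-Hochberg over the 13 ratios). These ratios rest on the same values as the fits above. In Syn2 over Syn1, Syt2 over Syt1 and Vamp1 over Vamp2, the single genes already separated the tissues in opposite directions in RPKM. The ratios of these pairs could therefore not overlap, and their p-values add nothing to the single genes. No share was computed over ratios of other gene pairs. Among all single genes on log2 CPM, 26.9% had all 4 hippocampus libraries above all 4 cortex libraries, and 24% had all 4 below.

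In hippocampus the synapsin ratio lay further toward Syn2. Syn2 over Syn1 was 0.229, 0.229, 0.23 and 0.212 in cortex and 0.521, 0.459, 0.628 and 0.505 in hippocampus, a log2 difference of 1.22. Syt2 over Syt1 was 0.00855, 0.00799, 0.00771 and 0.00691 in cortex and 0.0182, 0.0165, 0.0266 and 0.0187 in hippocampus, a log2 difference of 1.34, and Vamp1 over Vamp2 was 0.0128, 0.0168, 0.0126 and 0.0149 in cortex and 0.022, 0.0286, 0.0417 and 0.0289 in hippocampus, a log2 difference of 1.06. In all 3 the scarcer relative gained in hippocampus, though it stayed the minor form. Cplx2 over Cplx1 (log2 difference 0.31) and Doc2b over Doc2a (0.44) were also higher in each hippocampus library. Lower in each were Sv2c over Sv2a (-1.14), Rab3b over Rab3a (-0.62), Pclo over Bsn (-0.38) and Syngr3 over Syngr1 (-0.13). The other 4 ratios overlapped. For Syn3 over Syn1 the hippocampus values were 0.136, 0.113, 0.292 and 0.127, of which only KO 1 reached the cortex range of 0.23 to 0.336. Slc17a6 over Slc17a7 was likewise 0.673 in hippocampus KO 1, above all cortex libraries, and 0.334 to 0.381 in the other 3, below all of them.

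**Figure D4:**
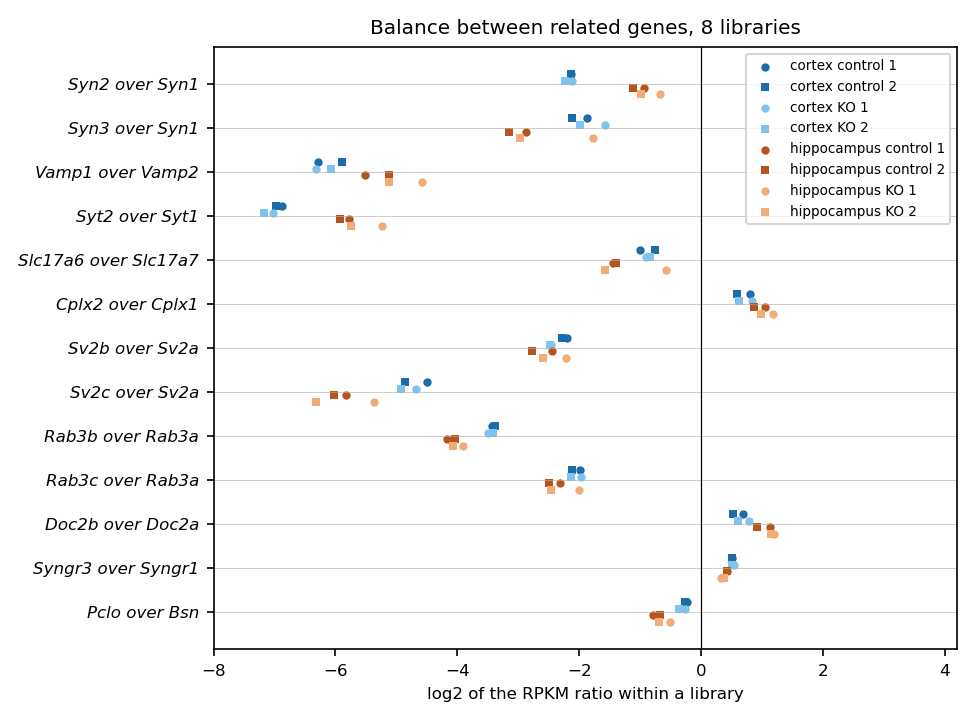
Log2 of the RPKM ratio within each of the 8 libraries for 13 pairs of related genes, coloured by group and shaped by replicate. Syn2 over Syn1, Vamp1 over Vamp2 and Syt2 over Syt1 lie farther right in hippocampus, and hippocampus KO 1 sits right of the other hippocampus libraries in most rows.

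The genotype comparison asked whether loss of Srrm4 moved the levels of this machinery. Y-linked markers were lower in KO for 4 of 4 in both tissues, with medians on the log2 scale of -2.57 in cortex and -1.83 in hippocampus. None of these markers passed (edgeR). Genotype and Y-linked RNA were therefore not balanced, and the part of this in the KO values was not tested. In cortex none of the 37 passed, against 0.0186% of all genes (edgeR); none had an unadjusted p under 0.05, where 1.14% of all genes did, and DESeq2 also called none. In hippocampus none passed, against 0.0248% of all genes; 3 had an unadjusted p under 0.05, where 3.81% of all genes did, and DESeq2 called none. With tissues combined none passed, against 0.0621% of all genes; again 3 had an unadjusted p under 0.05, where 4.43% of all genes did, and DESeq2 called none. The combined fits counted cortex and hippocampus libraries as independent. If same-numbered libraries share embryos, the SE and p-values of these fits may be too small. All values tested are gene totals, and changes in the splicing of a gene do not show in them.

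Most of the differences were small and below 0. In cortex 26 of the 37 log2 fold changes were below 0 (50.3% of all genes), with a median of -0.02. In hippocampus 31 were below 0 (51.4% of all genes), with a median of -0.18 beside 0.00 over all genes. That median was -0.06 without hippocampus KO 1, -0.09 without hippocampus control 1 and -0.27 without hippocampus KO 2. With tissues combined 32 were below 0 (51.8% of all genes), with a median of -0.11, which was -0.04 without hippocampus KO 1 and -0.07 without hippocampus control 1. Against the mean of both controls, hippocampus KO 1 had a median of -0.27 over the 37 genes and hippocampus KO 2 a median of -0.07. In cortex the controls differed from each other by a median of 0.18 and the KO libraries by 0.12, both larger than the cortex KO difference. Hippocampus KO 1 gave the lowest of the 8 values for 23 of the genes, and cortex control 1 the highest for 22. The 37 genes took 0.577% and 0.553% of counts in hippocampus controls and 0.494% and 0.541% in hippocampus KO. In these libraries the summed pan-neuronal markers were 8130, 7890, 7360 and 7580 CPM, and the interneuron markers 491, 536, 409 and 470 CPM. Progenitor markers summed to 1660, 1540, 1830 and 1600 CPM, and microglia markers to 95.9, 82.7, 109 and 94.9 CPM. Erythroid markers were at 44.7, 54.3, 101 and 61.4 CPM, and choroid plexus markers at 21, 195, 35.7 and 37 CPM. The part of these lists in the hippocampus values was not tested.

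The calcium sensors Doc2a and Doc2b were the 2 genes whose KO libraries lay below the controls of the same tissue in both tissues. Such a pattern in 2 of the 37 is near the share over all genes, 3.66%, and neither gene passed. Doc2a was 7.85 ± 0.389 RPKM in KO beside 9.32 ± 0.0141 RPKM in controls in cortex and 3.45 ± 0.856 RPKM in KO beside 4.61 ± 0.544 RPKM in controls in hippocampus. The log2 fold change was -0.25 (SE 0.16) in cortex, -0.45 (SE 0.17) in hippocampus and -0.35 (SE 0.11, adjusted p = 1.00, edgeR) with tissues combined. Doc2b was 12.7 ± 0.488 RPKM in KO beside 14.3 ± 1.15 RPKM in controls in cortex and 7.73 ± 1.72 RPKM in KO beside 9.29 ± 0.156 RPKM in controls in hippocampus, with a combined value of -0.23 (SE 0.10, adjusted p = 1.00, edgeR). For both genes hippocampus KO 1 was well below hippocampus KO 2.

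Sncb had the smallest unadjusted p of the list in hippocampus. It was 17.99 ± 1.95 RPKM in KO beside 23.8 ± 1.61 RPKM in controls there, a log2 fold change of -0.44 (SE 0.13, adjusted p = 0.99, edgeR). Both KO libraries were below both controls. On log2 CPM this held in hippocampus for 15 of the 37 genes, Sncb and Cadps2 among them, and for 2569 of the 16111 genes tested. In cortex it was 60.1 ± 2.64 RPKM in KO beside 62.5 ± 7.74 RPKM in controls, a value of -0.05 (SE 0.13) with overlapping libraries. Cplx1 followed, at 42.4 ± 7.22 RPKM in KO beside 52.5 ± 1.38 RPKM in controls in hippocampus (edgeR log2 fold change -0.34, SE 0.12, adjusted p = 0.99) and 57.4 ± 2.35 RPKM in KO beside 59.1 ± 0.148 RPKM in controls in cortex (-0.04, SE 0.12). Syn1 was 45.1 ± 13.4 RPKM in KO beside 57.4 ± 1.09 RPKM in controls in hippocampus (-0.38, SE 0.18), where the KO libraries, at 35.6 and 54.6 RPKM, differed from each other by more than KO 2 did from either control. Rab3a was 144 ± 22.2 RPKM in KO beside 166 ± 1.26 RPKM in controls in hippocampus (-0.24, SE 0.11) and 181 ± 4.14 RPKM in KO beside 181 ± 7.54 RPKM in controls in cortex (0.01, SE 0.11).

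The remaining named genes had values on both sides of 0. Syn3 was the gene with the largest positive value, 0.22 (SE 0.17, adjusted p = 1.00, edgeR) with tissues combined, and its KO and control libraries overlapped in both tissues. Cadps2 stood at -0.20 (SE 0.11), with both hippocampus KO libraries, 3.67 and 3.57 RPKM, below both controls. Sv2b was -0.23 (SE 0.15) in cortex and -0.04 (SE 0.16) in hippocampus. Syt2 was -0.19 (SE 0.14) in cortex and 0.11 (SE 0.14) in hippocampus, a difference between tissues of 0.30 (SE 0.20) that did not pass.

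**Figure D5:**
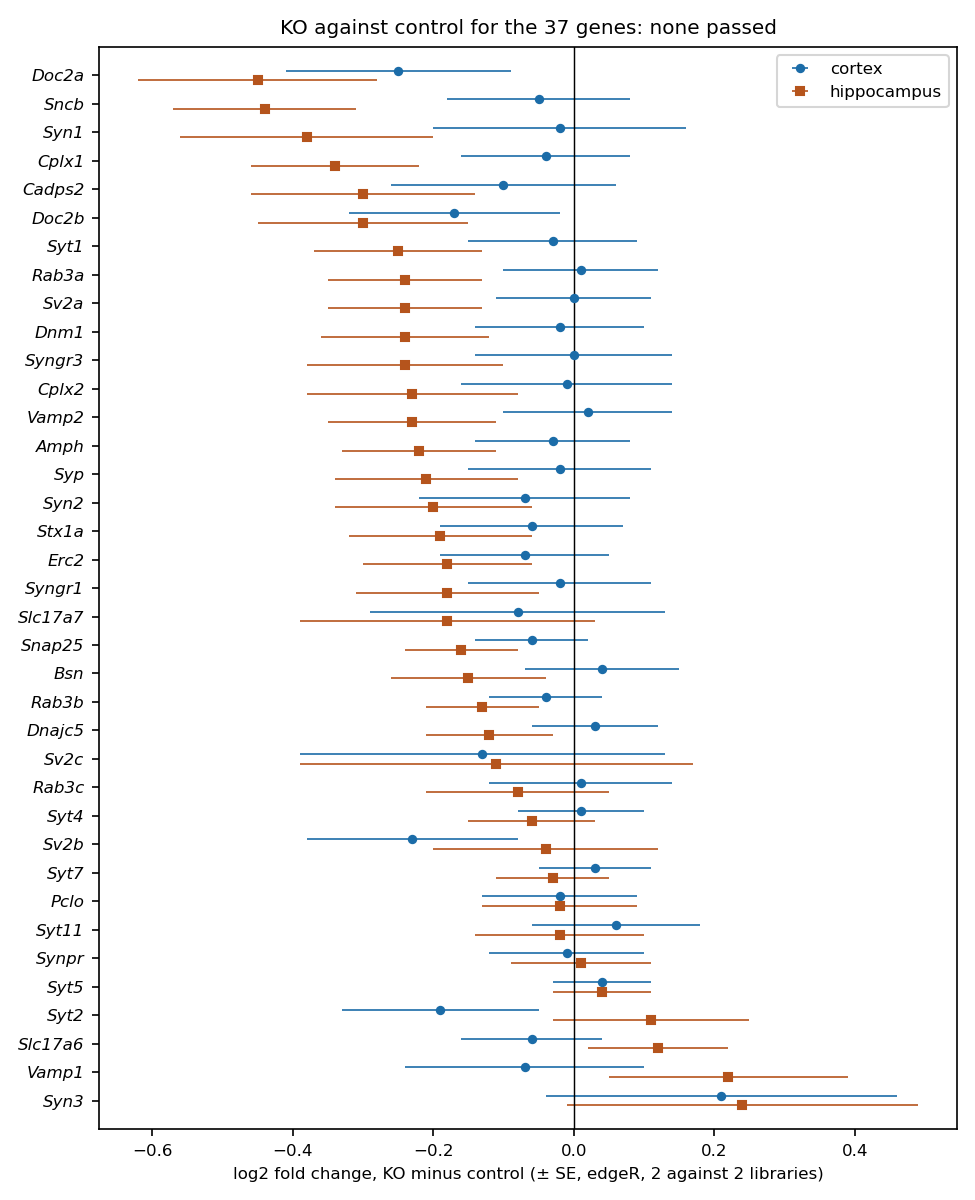
Log2 fold change of KO against control with its SE for the 37 genes, in cortex (circles) and hippocampus (squares), sorted by the hippocampus value. No gene passed; hippocampus values run from -0.45 for Doc2a to 0.24 for Syn3, and cortex values from -0.25 to 0.21.

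A second list held other genes of the same pathway, of which 67 were found and 65 tested. In hippocampus against cortex 27 of them were lower and 19 higher (54.1% of all genes passed), with a median log2 fold change of -0.11. The largest differences were Syt6 at -3.13 (SE 0.10), Cplx3 at -2.84 (SE 0.42) and Syt10 at -2.04 (SE 0.22), with adjusted p of 4.4e-08, 0.00038 and 4.4e-05 (edgeR). Syt6 lay at 16.6, 14.5, 17.9 and 14.6 RPKM in cortex and 1.87, 2.07, 2.05 and 1.76 RPKM in hippocampus. Syt10 lay at 1.18, 0.81, 1.01 and 0.67 RPKM in cortex and 0.25, 0.24, 0.29 and 0.17 RPKM in hippocampus, and Cplx3 was at most 0.21 RPKM in any library. By role, 7 of 12 further calcium sensors were lower and 2 higher, and of 17 further SNARE genes 6 were lower and 7 higher. None of the 65 passed in any genotype comparison or in the interaction (edgeR); 2 had an unadjusted p under 0.05 in cortex (1.14% of all genes), 6 in hippocampus (3.81%), 5 with tissues combined (4.43%) and 3 in the interaction (0.981%). The smallest p with tissues combined was that of Picalm, a clathrin adaptor of endocytosis, at 69.1, 76.4, 61.9 and 63.6 RPKM in cortex and 68.1, 69.9, 59.2 and 61.1 RPKM in hippocampus (edgeR log2 fold change -0.22, SE 0.04, adjusted p = 0.46). Its KO libraries were below the controls in both tissues. Synj1, the phosphatase that uncoats endocytic vesicles, gave the smallest p in cortex (-0.25, SE 0.07, adjusted p = 1.00, edgeR), and Syt13 that in hippocampus (-0.71, SE 0.16, adjusted p = 0.99, edgeR).

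Reads shared between genes limit some of these values. By the GENCODE M21 annotation 14 of the 37 genes overlap an exon of another gene, 13 of them on the opposite strand, and the sources used here do not say whether counting used strand. Syn3 overlaps Timp3, which lay at 8.96, 8.4, 7.75 and 7.49 RPKM in cortex and 16.4, 15.8, 12.4 and 15.2 RPKM in hippocampus, opposite in direction to Syn3. Syn2 overlaps Timp4, which lay at 1.97 to 2.28 RPKM in cortex and 2.23 to 2.95 RPKM in hippocampus, and Doc2a overlaps Ino80e. Values of the genes that overlap another are uncertain by as much as reads were assigned to the wrong partner.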

How the data were processed

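RNA was purified with Tri Reagent and made into Illumina TruSeq libraries, per the labels' protocols. Bowtie and mm9 are named in the submitters' processing notes; how reads were counted, and on which strand, was not given in the sources used here. The deposited tables hold, per Ensembl gene ID, a raw read count and an RPKM value made by the authors, and 1114 RPKM cells of each table, none of them a listed gene, read "ne". Symbols were matched for 20759 of 22667 IDs. Counts were tested with edgeR 4.0.16 (R 4.3.3, TMM, glmQLFTest, two-sided) over the 16111 genes that passed filterByExpr (minimum count 10, minimum total 15), with Benjamini-Hochberg adjustment and a threshold of 0.05. SE is the log2 fold change divided by the square root of F. Group means or an additive model of tissue and genotype were fitted to all 8 libraries. A floor of 3 counts is 0.0214 to 0.0515 CPM. The fit was tested on simulated data. Alternatives used DESeq2 1.42.0, limma 3.58.1, other scalings and filters, blocks and left-out libraries. The members, the other lists and the rule for named genes (members that passed anywhere, extremes of level and of KO difference, and smallest p) were chosen with earlier results of these data known. Values of some listed genes are not reported here.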

Additional observations from a re-analysis of the deposited data

How the results depend on the processing

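None of the 37 genes was called for genotype or interaction under any alternative run. With tissues combined, 25 to 27 were lower and 4 to 5 higher in hippocampus under the alternatives that keep all libraries. On log2(RPKM + 0.1) the median of all genes moved to 0.11 and that of the 37 to -0.38. In controls, leaving out single libraries gave 11 to 23 lower and 1 to 3 higher, and 3189 to 5972 genes called (11 and 1, with 3189 genes, without cortex control 1; 13 lower without hippocampus control 2). In KO, 4112 to 6350 genes were called, the fewest without cortex KO 1.

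Counts of all genes changed by genotype were small and unstable. In cortex the count was 3, and 11 with DESeq2. In hippocampus it was 4, with 18 in DESeq2 and 2 with upper-quartile factors, with a filter at 1 RPKM, with limma on log2(RPKM + 1) and with only the 4 libraries compared, and 2 to 7 when leaving out single libraries. With tissues combined it was 10, with 37 in DESeq2, 4 in limma on the mean of tissues, and 5 to 9 when leaving out single libraries. It was 30 in the libraries of replicate 1 alone and 1220 in those of replicate 2 alone. The medians over the 37 genes were -0.20 and -0.02. Each of these fits held 1 KO and 1 control library per tissue, so a genotype was repeated only across tissues, possibly within 1 embryo. In replicate 2 the Y-linked sums were 144 and 148 CPM in controls and 0.319 and 0.412 CPM in KO. These counts therefore do not give the number of genes changed by KO, and the cause of their difference was not tested.

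The groups share replicate numbers in the labels, which do not say what a number marks. The replicate differences correlated at 0.096 to 0.38 between groups, and at 0.368 and 0.38 between cortex and hippocampus of controls and of KO, and whether these pairs share embryos is not stated. With the replicate block 22 genes were called for genotype with tissues combined, and in hippocampus against cortex 10007 genes, with 27 of the 37 lower and 5 higher. With cortex and hippocampus paired by genotype and number (a replicate block within genotype), 10196 genes were called, again with 27 lower and 5 higher; Syt11 was the added call in both.

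Some signs turned with single libraries left out. For KO in cortex the ranges were -0.10 to 0.08 for the median of the 37, -0.27 to 0.10 for Cadps2, -0.11 to 0.03 for Cplx1, -0.19 to 0.12 for Sncb, -0.12 to 0.11 for Syn1, -0.05 to 0.09 for Rab3a and -0.10 to 0.48 for Syn3. For KO in hippocampus they were -0.23 to 0.19 for Sv2b (0.00 in limma on log2(RPKM + 0.1)) and -0.06 to 0.48 for Syn3. The interaction ran from -0.27 to 0.34 for Syn3, -0.49 to 0.06 for Doc2a and -0.39 to 0.10 for Doc2b, and KO with tissues combined from -0.09 to 0.05 for Syt2. Between tissues they were -0.01 to 0.11 for Amph and -0.03 to 0.27 for Slc17a7, and Cadps2 was 0.02 in limma with either pseudocount. Every one of the 37 genes had at least 121 counts in each library.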
